A study of Mus musculus with 5 samples.

Results

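Arginase, nitric oxide synthase and polyamine genes were followed in peritoneal macrophages of wild-type mice and of mice labelled as lacking c-Jun in myeloid cells. The set holds 10 genes: the arginine transporters Slc7a1 and Slc7a2, the inducible nitric oxide synthase Nos2, the arginases Arg1 and Arg2, the arginine-resynthesis genes Ass1 and Asl, and the polyamine genes Odc1, Srm and Sat1. They were chosen by name: every non-control spot whose transcript accession mapped to one of these symbols was taken, which gave 14 probes for the 10 genes out of 21154 symbols named on the array. All 14 probes were well above background on all 5 arrays and none was saturated.

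RNA came from adherent cells of a peritoneal lavage after a night in culture, hybridised to 1-colour Agilent arrays. The control group was 3 wild-type mice (numbers 5, 11 and 14), littermates of the deleted animals, and the c-Jun-deleted group (c-JunΔLysM, genotype cJunfl/fl LysMCre-/+) was 2 mice (numbers 1 and 9). All mice were 8 weeks old, of either sex, on a 129/C57Bl6 background, and the labels name no agent. LysM-Cre is driven by the lysozyme 2 gene and acts mainly in myeloid cells. For the deleted samples, the source names give Mx in place of LysM, as does a column heading in the authors' deposited table, a Cre that is not limited to myeloid cells, so the cells that lost c-Jun rest on the titles and genotypes. Whether the wild-type littermates carried floxed alleles or Cre is not given in the sources used here. A level below is the log2 of a gene's signal relative to the 75th percentile of its array, a difference is c-Jun-deleted minus wild-type on that scale, and SE is the standard error of the limma fit across all genes.

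Arginine is the shared substrate of arginase, which makes ornithine and urea, and of nitric oxide synthase, which makes nitric oxide and citrulline. Ornithine decarboxylase turns ornithine into putrescine, from which spermidine and spermine are built, while argininosuccinate synthase and lyase turn citrulline back into arginine. In mouse macrophages Arg1 is known as a marker of alternative activation by interleukin 4, and Nos2 as a marker of activation by interferon gamma and microbial products. AP-1, the dimer to which c-Jun belongs, is among the factors known to act on several of these genes.

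The share of probes well above background ran from 52.1% to 59.9% per array, and pairs of arrays had a Pearson's r of 0.955 to 0.984 across genes. All 6 macrophage markers listed (Adgre1, Csf1r, Cd68, Itgam, Mertk and Fcgr1) were well above background on every array. So were 7 of 8 B cell markers, whose summed signal was 37.8 to 77.1 times the 75th percentile in wild-type and 255 to 372 in c-Jun-deleted samples. The macrophage sum was 361 to 499 in wild-type, lowest on wild-type 11, and 438 to 479 in c-Jun-deleted samples. Csf1r, Mertk and Fcgr1 were lower and Cd68 and Itgam higher in deleted samples without overlap, while the groups of Adgre1 overlapped. Jun, the targeted gene, was measured by a probe that could not be placed inside or outside the floxed stretch, so its level is no check of the genotype. The Y-linked transcripts Ddx3y and Eif2s3y were well above background only on wild-type 11, where Xist was at -4.53 against -0.037 to 0.74 elsewhere. Wild-type 5 and c-Jun-deleted 1 shared slide 1, and the other 3 arrays shared slide 2. The 27938 features tested, called genes below, were 14641 genes with a symbol and, for the rest, unnamed probes taken singly. Of these, 0 had a limma adjusted p below 0.05 and 3395, or 12.2%, had an unadjusted p below 0.05. The groups did not overlap for 33.5% of the genes.

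Among the 10 genes, 2 stood apart between the genotypes and 8 overlapped. Slc7a1, the main cationic amino acid transporter of many cells, was higher in c-Jun-deleted samples, and Nos2 was lower. Arg1, Arg2, Slc7a2, Ass1 and Asl had lower means in the deleted group, but their groups overlapped, and Odc1, Srm and Sat1 differed by at most 0.20 on the log2 scale (at most 0.41, for Srm, with median centring, and 0.53 within slide 1). None of the 10 passed limma's adjusted threshold, and 2 had an unadjusted p below 0.05, beside 12.2% of all genes. Of the 2, 1 was higher (5.63% of all genes were) and 1 lower (6.53% were). The same 2 were those whose groups did not overlap, beside 33.5% of all genes (13.3% higher and 20.2% lower). The median difference of the 10 genes was -0.30, with a range from -2.16 to 0.90, beside -0.09 for all genes tested.

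**Figure D1:**
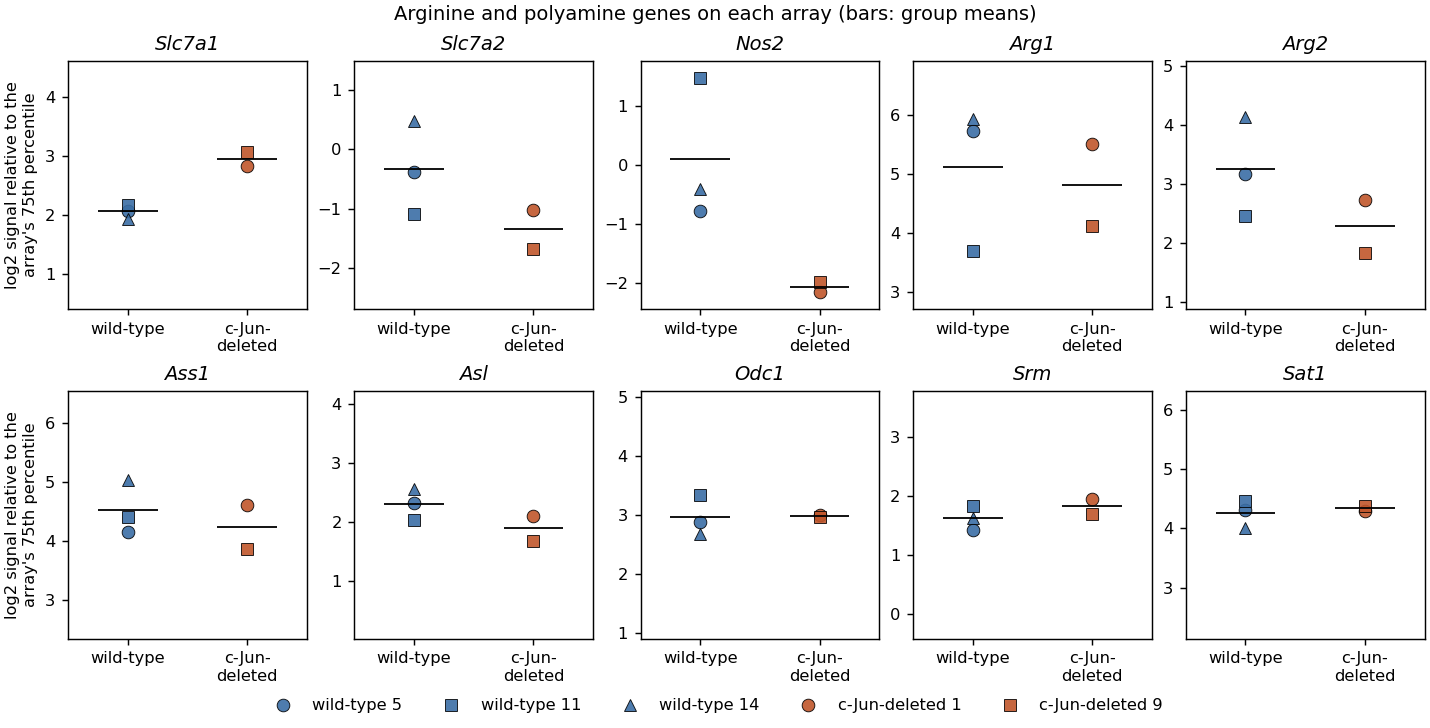
Level of each of the 10 genes (log2 signal relative to the 75th percentile of the array) on the 3 wild-type arrays (blue) and the 2 c-Jun-deleted arrays (orange), with bars at the group means and the same axis length in every panel. The groups are separate for Slc7a1 and Nos2, and wild-type 11 (blue square) is the lowest wild-type array for Arg1, Arg2 and Slc7a2 and the highest for Nos2.

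Arginine uptake was represented by both transporters. Slc7a1, which encodes the constitutive carrier CAT1, stood at 2.07, 2.18 and 1.94 on wild-type 5, 11 and 14, and at 2.84 and 3.08 on c-Jun-deleted 1 and 9. Both deleted arrays lay above every wild-type one, by a gap of 0.66, and the wild-type arrays spanned only 0.24. The signal was 1.86-fold higher in the deleted group (95% interval 1.39 to 2.49; log2 difference 0.90, SE 0.16; limma unadjusted p = 0.00303, adjusted p = 0.227), the 359th smallest p of 27938. Within slide 1 the difference was 0.77, within slide 2 it was 1.02, and with the slide as a block it was 0.91. Over all alternatives it lay between 0.77 and 1.11, and limma's adjusted p between 0.0837 and 0.804. Some cell type lists also had higher means in the deleted group, as did the 6 tested mast cell genes, whose groups all overlapped. All 8 B cell genes were higher in the deleted group without overlap (sums above), while of 7 T and NK cell genes only Cd2 was, at 2.50 to 3.46 against 5.06 and 5.44, and the other 6 overlapped. All 6 large peritoneal macrophage genes had higher means in the deleted group, 2 of them (Icam2 and Tgfb2) without overlap, and their sum was 53.4 to 98.6 in wild-type against 98.8 to 119. Of 4 erythroid genes tested, 3 (globins) were higher and 1 lower, with a sum of 0.522 to 1.35 against 10.3 to 22.2 and Alas2 not well above background on any array. Their part in the Slc7a1 level was not tested. In a mixed sample a larger number of cells of a type and more RNA per cell cannot be told apart.

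Because Slc7a1 was the gene with the smallest p of the set, and c-Jun acts as part of AP-1, the bases before its starts are shown. RefSeq (GRCm38.p6) gives 2 starts, with the 250 bases before them at chr5:148399905-148400154 and chr5:148392816-148393065, both on the minus strand and printed 5′ to 3′ along the gene. Capitals mark the AP-1 motif TGANTCA, searched on both strands.
Slc7a1, outer start: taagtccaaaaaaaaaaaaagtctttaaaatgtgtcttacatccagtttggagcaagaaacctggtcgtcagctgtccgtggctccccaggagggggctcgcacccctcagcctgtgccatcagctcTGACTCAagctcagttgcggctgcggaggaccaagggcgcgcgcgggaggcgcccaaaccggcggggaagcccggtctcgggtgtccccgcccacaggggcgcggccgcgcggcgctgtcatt
Slc7a1, inner start: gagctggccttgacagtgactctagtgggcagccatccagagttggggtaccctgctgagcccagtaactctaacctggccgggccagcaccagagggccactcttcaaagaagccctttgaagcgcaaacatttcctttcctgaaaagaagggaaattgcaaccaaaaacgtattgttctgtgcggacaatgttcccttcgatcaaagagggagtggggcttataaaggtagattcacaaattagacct
The outer window holds 1 match, and its first base lies at position -123 relative to the start. The table held 5 promoters for 4 of the 10 genes (Slc7a1, Ass1, Odc1 and Sat1), and the other genes, Arg1, Nos2, Arg2, Slc7a2, Asl and Srm, were not matched. Over 300 bases (250 before the start and 50 after it) TGANTCA was found in 1 of these 5 promoters and in 7.81% of all 32851 promoters. The cyclic AMP element TGACGTCA was in 0 of 5 (1.79% of all) and the E-box CACGTG in 1 of 5, that of Ass1 (7.15% of all). The STAT6-type motif (TTC, any 4 bases, GAA) was in 0 of 5 (6.95%), and the NF-kB-type motif (GGG, any 5 bases, CC), whose matches can overlap, in 3 of 5 (50.8%). A match is a string of letters and not a measured binding site.

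Slc7a2, which encodes the inducible transporter CAT2 that supplies arginine to activated macrophages, was at -0.38, -1.09 and 0.48 on wild-type 5, 11 and 14. On c-Jun-deleted 1 and 9 it was at -1.02 and -1.68. Wild-type 11 lay among the deleted arrays, so the groups overlapped. The difference was -1.02 (SE 0.52, 95% interval -2.37 to 0.33; limma adjusted p = 0.480). Both transporters import the same amino acid, yet their point estimates had opposite signs, and that contrast between the transporters was not tested. Without wild-type 11 the Slc7a2 difference was -1.40 (limma adjusted p = 0.261).

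Nitric oxide synthesis was represented by Nos2, measured by 1 probe spotted in duplicate (2 spots). It was at -0.77, 1.47 and -0.40 on wild-type 5, 11 and 14, and at -2.14 and -1.97 on c-Jun-deleted 1 and 9. Both deleted arrays were below every wild-type array, by a gap of 1.20, and they lay within 0.17 of each other, while the wild-type arrays spanned 2.24. As spot intensity, Nos2 ran from 278 to 1264 in wild-type and from 111 to 135 in c-Jun-deleted samples. It was 4.46-fold lower in the deleted group (95% interval 1.22 to 16.4; log2 difference -2.16, SE 0.72; limma unadjusted p = 0.0318, adjusted p = 0.367). The authors' deposited table, which gives 1 mean per group, has the same probe with a difference of -2.16.

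Wild-type 11 set the size of the Nos2 difference but not its direction. Without that array it was -1.47 (limma adjusted p = 0.187), without wild-type 5 it was -2.59, and without wild-type 14 it was -2.41. Leaving out c-Jun-deleted 1 or 9 gave -2.07 and -2.24. Within slide 1 it was -1.37, within slide 2 it was -2.51, and with the slide as a block it was -2.02 (limma adjusted p = 0.511). With normexp background correction, which draws in low signals, it was -1.58. The direction was the same in all 15 alternatives that gave a value, but most of them could not have turned it. As the groups did not overlap, leaving out an array or fitting by slide had to keep the sign. Nos2 has 1 probe without flagged spots, so no filter, the mean of probes and outlier spots kept left the value at -2.16.

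The Nos2 level on wild-type 11 was 4.16-fold above the mean of the other wild-type arrays. Irf1, a transcription factor of the interferon response known to act on Nos2, was highest on the same array, a choice made after its values were seen. Irf1 was at 7.23 there and between 5.70 and 6.50 on the other 4 arrays. Markers of monocyte-derived macrophages and dendritic cells had a summed signal of 32.2 on wild-type 11 and of 6.27 to 13.0 on the others, and all 6 of them were well above background on every array. The list was mixed. Ccr2, the chemokine receptor of monocytes, was at 3.14 on wild-type 11 and between -0.69 and 0.58 elsewhere, but Cd209a, a lectin of dendritic cells, was lowest there, at -2.05 against -1.03 to 1.93. The T and NK cell list was mixed too. Cd3e, Cd3d, Cd3g, Nkg7 and Ncr1 were highest on wild-type 11, with Cd3e at 2.46 there and between 0.67 and 1.81 elsewhere. Lck was highest on c-Jun-deleted 9, at 3.73 against 3.62 on wild-type 11, and Cd2 was higher on both deleted arrays. The list's sum was 43.3 on wild-type 11 and 21.0 and 15.9 on wild-type 5 and 14. On c-Jun-deleted 1 and 9 it was 52.7 and 69.5. There Cd2, at 5.06 and 5.44, was the brightest gene of the list and carried the largest part of the sum. The next brightest, Lck, was at 3.10 and 3.73, so the sum does not rank the arrays by the other genes. The mesothelial sum was highest on wild-type 11, at 1.63. It was 0.644 to 1.63 in wild-type against 0.266 to 0.348 in deleted samples, with 4 of 4 tested genes lower and Lrrn4 not well above background. The part of these cells, and of the sex of that mouse, in the Nos2 values was not tested. Wild-type 11 was the highest wild-type array for Nos2, so leaving it out could not bring the groups together.

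Both arginases varied widely among mice of the same genotype. Arg1, the cytosolic arginase, was at 5.73, 3.70 and 5.93 on wild-type 5, 11 and 14, and at 5.52 and 4.12 on c-Jun-deleted 1 and 9. Wild-type 11 was the lowest of all 5 arrays, and c-Jun-deleted 1 lay close to wild-type 5. The spread among the wild-type arrays was 2.24, wider than that of 94.3% of the genes tested, and the deleted arrays lay 1.39 apart, a 2.63-fold change in signal. The difference between genotypes, -0.30, was smaller than either spread (SE 0.85, 95% interval -2.50 to 1.90; limma adjusted p = 0.902). Single arrays turned its sign: leaving out wild-type 11 gave -1.01, but leaving out number 5 or 14 of the same group gave 0.0043 or 0.11, and leaving out c-Jun-deleted 9 gave 0.40.

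Arg2, the mitochondrial arginase, was at 3.18, 2.46 and 4.14 on the wild-type arrays, against 2.74 and 1.83 on the deleted ones, in the same order. Wild-type 14 was highest and c-Jun-deleted 9 lowest, and c-Jun-deleted 1 lay between wild-type 11 and wild-type 5. The difference was -0.97 (SE 0.58, 95% interval -2.48 to 0.53; limma adjusted p = 0.529), and -1.38 without wild-type 11. Arg1, Arg2, Slc7a2 and Asl shared 1 order of the wild-type arrays (14 highest, then 5, then 11) and all 4 were lower on c-Jun-deleted 9 than on c-Jun-deleted 1. Other pathway genes had the same orders in both groups, among them Slc7a7, Slc3a2, Glul, Stat3, Cebpb and Hif1a. The share of all genes with these orders was not counted, so they are not particular to the arginases. These orders come from 5 arrays and are given without a test.

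On wild-type 11 Arg1 was 4.39-fold, Arg2 2.30-fold and Slc7a2 2.21-fold below the mean of the other wild-type arrays. Genes marking the resident large macrophages of the peritoneum had their lowest summed signal on the same array, 53.4 against 67.7 to 119 on the others. Timd4, a phosphatidylserine receptor of these cells, was at 1.47 there and between 4.11 and 4.83 elsewhere, and Gata6, their defining transcription factor, was at -1.07 against 1.29 to 2.08. Icam2 of the same list went the other way among wild-type arrays, at 5.34 on number 11 against 4.96 and 4.59. All 6 markers of the list were well above background on every array, and their part in the arginase levels was not tested. On c-Jun-deleted 9, where Arg1 and Arg2 were also low, Timd4 was at 4.11 and Gata6 at 2.08.

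**Figure D2:**
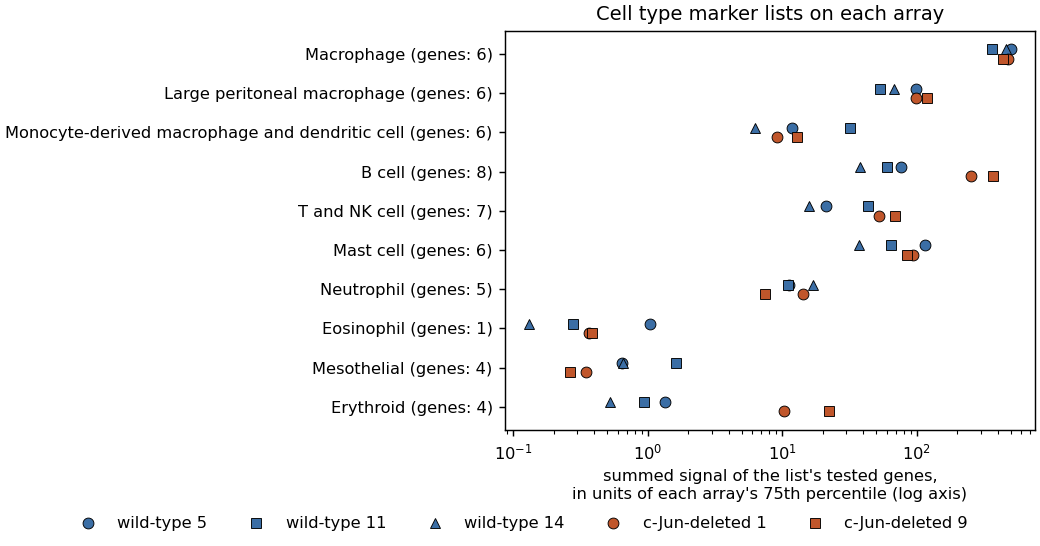
Summed signal of the tested genes of each cell type marker list, in units of the 75th percentile of the array and on a log axis, for the 3 wild-type (blue) and 2 c-Jun-deleted (orange) arrays. Wild-type 11 (blue square) has the highest monocyte-derived sum, 32.2, and the lowest large peritoneal macrophage sum, 53.4, and the c-Jun-deleted arrays have the highest B cell sums, 255 and 372.

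Resynthesis of arginine from citrulline is carried by Ass1 and Asl. Ass1, argininosuccinate synthase, was at 4.15, 4.40 and 5.02 on wild-type 5, 11 and 14 and at 4.61 and 3.86 on c-Jun-deleted 1 and 9. The deleted arrays lay on either side of the lower wild-type ones, and the difference was -0.29 (SE 0.37; limma adjusted p = 0.760). The second Ass1 probe gave 3.08, 3.20 and 3.95 against 3.55 and 2.75, a difference of -0.26. Within slide 1 the Ass1 difference was 0.46 and within slide 2 it was -0.85. Asl, argininosuccinate lyase, was at 2.32, 2.03 and 2.56 against 2.09 and 1.68, a difference of -0.41 (SE 0.24, 95% interval -1.03 to 0.20; limma adjusted p = 0.513). Only c-Jun-deleted 9 lay below the wild-type range of Asl.

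Odc1, Srm and Sat1 had small differences, whose size relative to the other genes depended on the scaling. With median centring they were 0.24, 0.41 and 0.29, beside -0.09 for Arg1, -0.08 for Ass1 and -0.20 for Asl. Odc1, ornithine decarboxylase, was at 2.87, 3.33 and 2.67 on wild-type 5, 11 and 14, and both deleted arrays, at 3.00 and 2.97, lay inside that range. Its difference was 0.03 (95% interval -0.59 to 0.64; limma adjusted p = 0.970), and the 2 other Odc1 probes gave -0.02 each. Srm, spermidine synthase, was at 1.41, 1.82 and 1.63 against 1.94 and 1.69, a difference of 0.20 (95% interval -0.30 to 0.70; limma adjusted p = 0.688). A second Srm probe gave 0.76, 1.28 and 1.16 against 1.46 and 1.29, a difference of 0.30 with no overlap, while the groups of the brighter probe overlapped. Sat1, spermidine/spermine acetyltransferase, which starts polyamine breakdown and export, was at 4.31, 4.46 and 4.01 against 4.29 and 4.38. That is a difference of 0.08 (95% interval -0.41 to 0.57; limma adjusted p = 0.884).

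**Figure D3:**
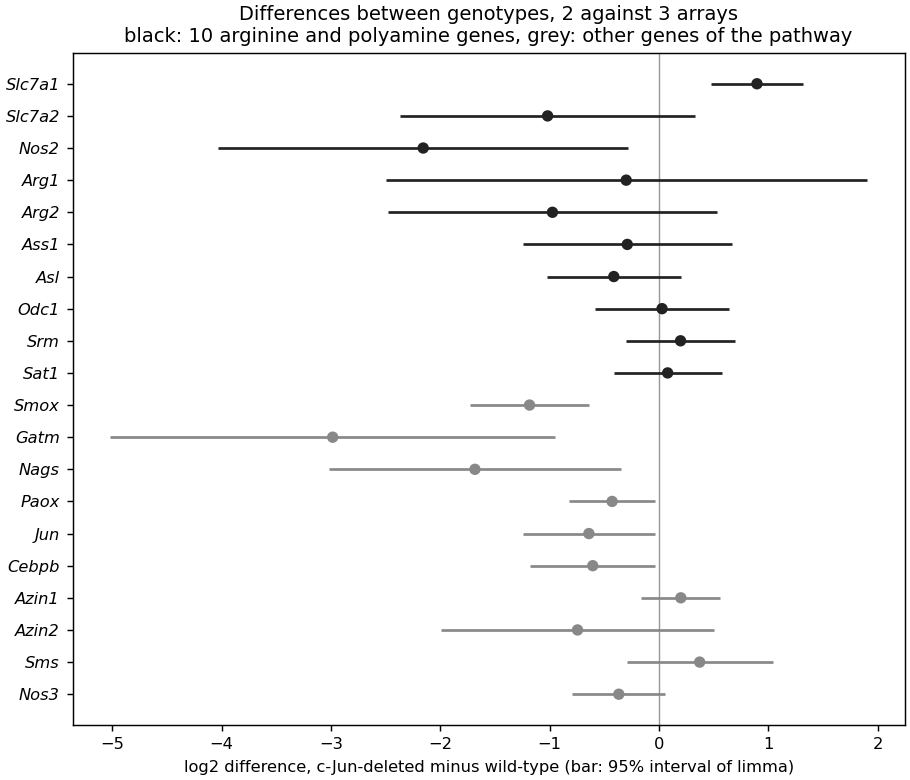
Difference in log2 level, c-Jun-deleted minus wild-type, with the 95% interval of the limma fit as a bar, for the 10 genes (black) and the other named genes of the pathway (grey). The interval of Slc7a1 lies above 0 and that of Nos2 below 0, without adjustment for the 27938 genes tested, while that of Arg1 runs from -2.50 to 1.90.

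The rest of the pathway was described from a list of 60 genes. Of these, 58 were on the array and 52 were tested, whereas Pycr1 and Amd1 were matched to no probe. None of the 52 passed limma's adjusted threshold, and 6 had an unadjusted p below 0.05, all of them lower in the deleted group. Over all genes, 12.2% had such a p in either direction and 6.53% were lower. The groups did not overlap for 18 of 52 genes, 34.6% beside 33.5% of all genes, with 5 higher and 13 lower. The median difference of the list was -0.17, beside -0.09 for all genes. Without wild-type 11, 15 genes of the list had an unadjusted p below 0.05, when 4505 of all genes did, and without c-Jun-deleted 9 the numbers were 2 and 1688. Without c-Jun-deleted 1 they were 3 and 3031.

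Of the 6 genes, 2 encode polyamine oxidases. Smox, spermine oxidase, which turns spermine back into spermidine, was at 3.53, 3.87 and 3.95 on wild-type 5, 11 and 14 and at 2.77 and 2.42 on c-Jun-deleted 1 and 9. The groups were 0.76 apart and the difference was -1.18, or 2.27-fold (SE 0.21; limma unadjusted p = 0.00278, adjusted p = 0.227). The authors' deposited table holds 2 Smox probes, with differences of -1.18 and -1.17. Within slide 1 it was -0.76 and within slide 2 it was -1.48. Paox, the oxidase of acetylated polyamines that Sat1 makes, was at 2.81, 2.75 and 3.00 against 2.47 and 2.39 (difference -0.43, SE 0.15; limma adjusted p = 0.383). Both oxidases were lower on each deleted array than on any wild-type array, beside the small differences of Odc1, Srm and Sat1. For Paox that contrast depended on the scaling. With median centring Paox was at a difference of -0.22 and Smox at -0.97, beside 0.24 for Odc1, 0.41 for Srm and 0.29 for Sat1.

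Among the other uses of arginine and ornithine, Gatm, which starts creatine synthesis from arginine, was at -2.17, -1.12 and -2.19 against -3.65 and -5.97. It was well above background on only 1 of 2 deleted arrays, so the difference of -2.98 (SE 0.78; limma adjusted p = 0.295) is uncertain in size, and with normexp it was -1.18. Nags, which makes the activator of the first urea cycle enzyme, was detected above background on neither deleted array and on 2 of the 3 wild-type ones. The measured means were -4.39 and -6.07 (limma adjusted p = 0.338). Its signal was 1.64-fold lower with each deleted array counted at no less than its dimmest detected probe. With normexp the difference was -0.49, a smaller change, so the fold is not a firm lower bound. Otc, Cps1, Gucy1a1 and Gucy1b1 were well above background on 0 arrays, and Ddah1 on 1.

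Paralogs of the 10 genes were read with them. Nos3, the endothelial nitric oxide synthase, was at -1.29, -1.60 and -1.57 against -1.86 and -1.86, lower without overlap by -0.37 (SE 0.16; limma adjusted p = 0.440). Nos1, the neuronal form, was well above background on 1 array and was not tested. Azin1, an inhibitor of the antizymes that target ornithine decarboxylase, was at 2.45, 2.50 and 2.60 against 2.76 and 2.67 (difference 0.20, SE 0.14; limma adjusted p = 0.577). Azin2 was at -2.56, -3.96 and -3.11 against -3.60 and -4.31 (difference -0.75; limma adjusted p = 0.555). Sms, spermine synthase, was at 1.84, 2.49 and 1.84 against 2.43 and 2.43 (difference 0.37; limma adjusted p = 0.575). The groups of Azin2 and Sms overlapped.

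Regulators known for Arg1, Nos2 or Odc1 were lower in the deleted group for 13 of 15 genes, with a median difference of -0.44, beside 17142 of 27938 genes and a median of -0.09. Of the 15, 4 did not overlap (26.7%, beside 33.5% of all genes), all of them lower, and the 4 include Jun, the deleted gene. Cebpb, a transcription factor known to act on Arg1, was at 6.69, 6.30 and 6.88 on wild-type 5, 11 and 14. On c-Jun-deleted 1 and 9 it was at 6.07 and 5.96. Both deleted arrays were below the wild-type range, with a difference of -0.61 (SE 0.22; limma adjusted p = 0.393). Jun itself had a difference of -0.64 (limma adjusted p = 0.391). With median centring the differences of Cebpb and Jun were -0.40 and -0.43. Il4ra, the interleukin 4 receptor chain through which Arg1 is induced, was named after its values were seen. It was at 3.06, 1.81 and 3.64 against 1.69 and 1.34 (difference -1.32, SE 0.57, limma adjusted p = 0.438). Its lowest wild-type value was again on wild-type 11, as it was for Stat3 and Stat6. Pparg and Klf4 of the same list went the other way. On wild-type 5, 11 and 14 Pparg was at -0.34, 1.20 and -0.83, and Klf4 at 0.86, 1.60 and 0.80. The part of these regulators in the Arg1 values was not tested.

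**Figure D4:**
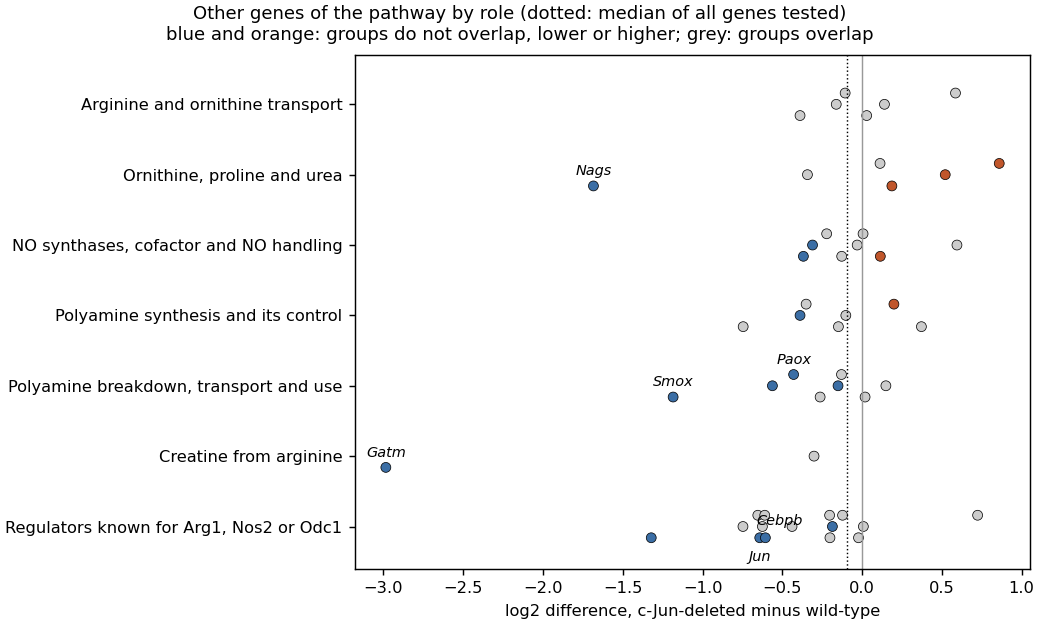
Difference in log2 level, c-Jun-deleted minus wild-type, of the 52 tested pathway genes by role, where each point is 1 gene. Blue and orange points are genes whose groups did not overlap (13 lower and 5 higher), grey points overlapped, names are given for the 6 genes with an unadjusted p below 0.05, and the dotted line is the median of all genes, -0.09.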

How the data were processed

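RNA of 5 mice was measured, 1 array each. The scanner files the authors deposited hold spot intensity as written by Feature Extraction 11.5.1.1, per the file headers, with the local background subtracted and no scaling between arrays. They also hold flags for background and outliers, another kind of value, used here to filter spots. The authors' deposited series table gives group means of 1709 probes as log2 values on an unknown baseline, and its name speaks of a 75th percentile shift. Its header names 4 wild-type arrays, 1 of them not analysed here, and 1692 of its differences lay within 0.001 of those computed here.

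Control spots and outlier-flagged spots were left out, log2 intensity was centred on each array's 75th percentile, spots of a probe were averaged, and a probe was kept if at least 2 of 5 arrays had it well above background. Accessions were named through RefSeq (GRCm38.p6), which named 28026 probes and left 27655 unnamed. The array was designed on mm9, so no array coordinates are given. Each named gene was its brightest probe and unnamed probes entered singly, 27938 features in all. The fit used limma 3.58.1 and R 4.3.3 (2-sided, Benjamini-Hochberg over all genes), a script checked on simulated data. No exact permutation test was run, since with 3 and 2 arrays its smallest possible p is 0.1. Mouse numbers were read as different animals, without which the p-values would cover the spread of these samples alone. Precision is limited by the number of arrays.

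Where no array of a group had a gene well above background, the fold is given with that group raised to a floor, and is not a strict lower bound. The dim group then counts, per array, at its signal or at the array's dimmest detected probe, whichever is larger. The genes, lists and motifs were chosen with earlier results of these data known. Named were the 10 genes, pathway genes without overlap at an unadjusted p below 0.05, and direct paralogs. Alternatives were median centring, quantile normalization, normexp with an offset of 50 on median spot and background signals, no filter, the mean of probes, outlier spots kept, the slide as a block or alone, each array left out, and the authors' deposited table.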

Additional observations from a re-analysis of the deposited data

How the results depend on the processing

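Slc7a1, Nos2, Arg2, Slc7a2 and Asl kept their direction in every alternative run, and none of the 10 genes passed limma's adjusted threshold in any. As the groups of Slc7a1 and Nos2 did not overlap, leaving out an array or fitting by slide could not turn their direction. Over all genes, 0 passed except with median centring, where 187 did, and the median difference of all genes moved from -0.09 to 0.12. With median centring the groups of 3 of the 10 genes did not overlap, beside 29.6% of all genes. With 1 wild-type array left out, 2 to 3 of the 10 genes had an unadjusted limma p below 0.05. So did 4 to 15 pathway genes, beside 2659 to 4505 of all genes. Counts of the 10 genes and of pathway genes were lower in fits with 1 deleted array. Odc1 turned to -0.0035 with the mean of probes and to -0.031 within slide 2, Srm to -0.035 within slide 2, and Ass1 to 0.46 and Sat1 to -0.019 within slide 1, which has 1 array per group and no test. With 1 array left out Arg1 ran from -1.01 to 0.40, Odc1 from -0.11 to 0.21, Sat1 from -0.048 to 0.18 and Ass1 from -0.67 to 0.086. The cause was not tested. Where a deleted array is left out or slide 2 stands alone, the spread comes from the wild-type arrays, and the lone deleted array is taken to share it. Of the 10 genes the authors' deposited table covers only Nos2. No paired analysis was possible because the groups share no replicate number; the slide, which they do share, was used as a block.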
